A study of Mus musculus with 8 samples.

Results

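Resident and recruited macrophages were followed through 10 genes that mark them (Csf1r, Adgre1, Cd163, Mrc1, C1qa, C1qb, Cx3cr1, Ccr2, Chil3 and Marco) in the distal colon of C57BL/6 mice. The genes were listed by name, with earlier results of these data known, and are 10 of the 55418 gene symbols counted. Total RNA was sequenced from 8 libraries of mice aged 8 to 10 weeks, 2 in each of 4 groups. The groups were wild type (WT) untreated, WT with DSS, NAIL-ΔNFκB untreated and NAIL-ΔNFκB with DSS. Dextran sulfate sodium (DSS) in drinking water injures the lining of the colon; these mice had it at 3% for 4 days and then plain water for 4 days, so the samples come from the days after the insult. NAIL is a long noncoding RNA locus, and ΔNFκB (used below for the line) is the labels' name for its altered form. Which bases differ is not in the labels, nor whether the mice were littermates or whether a library is 1 mouse or a pool, so the p-values measure only the spread between these libraries, which may be partly technical. All 10 genes had enough counts to be tested. The question the design poses is how each gene's level changed with DSS in each genotype, whether the genotypes differed without and after DSS, and whether the DSS effect itself differed.

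The colon wall holds a large macrophage population that is replaced throughout life from blood monocytes. Monocytes enter through the chemokine receptor CCR2, and as they mature they lose CCR2 and gain F4/80 (the product of Adgre1), the fractalkine receptor CX3CR1, the mannose receptor CD206 (Mrc1) and, in part of the population, the hemoglobin scavenger receptor CD163. In an inflamed colon newly arrived monocytes stay in an inflammatory state. The growth factor receptor encoded by Csf1r is needed by the whole lineage, and C1q, the recognition part of the classical complement pathway, is made largely by mature macrophages. Chil3 (Ym1) is a secreted chitinase-like protein of monocytes, alternatively activated macrophages and immature neutrophils, and Marco is a scavenger receptor of a few macrophage populations that is low in resting gut.

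Cd163, Chil3 and Marco were the members that differed between the genotypes after DSS, and C1qb, which passed in no comparison, is shown beside them. Each line below is the 250 bases before the gene's annotated start, taken from RefSeq (GRCm38.p6), 5′ to 3′ on the gene's strand: Marco chr1:120505025-120505274 (minus strand), Chil3 chr3:106167565-106167814 (minus), C1qb chr4:136886201-136886450 (minus) and Cd163 chr6:124304401-124304650 (plus). Capitals mark GAGGAA, the core of the site bound by PU.1, the myeloid transcription factor encoded by Spi1, searched on both strands.
Marco: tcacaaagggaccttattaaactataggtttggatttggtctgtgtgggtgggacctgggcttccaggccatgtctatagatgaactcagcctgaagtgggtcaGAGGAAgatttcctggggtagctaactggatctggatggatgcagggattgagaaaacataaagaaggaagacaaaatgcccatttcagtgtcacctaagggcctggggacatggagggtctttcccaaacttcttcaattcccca
Chil3: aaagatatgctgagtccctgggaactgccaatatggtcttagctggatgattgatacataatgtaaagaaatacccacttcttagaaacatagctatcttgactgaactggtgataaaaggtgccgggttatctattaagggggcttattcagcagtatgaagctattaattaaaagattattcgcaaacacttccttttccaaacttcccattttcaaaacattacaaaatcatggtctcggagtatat
C1qb: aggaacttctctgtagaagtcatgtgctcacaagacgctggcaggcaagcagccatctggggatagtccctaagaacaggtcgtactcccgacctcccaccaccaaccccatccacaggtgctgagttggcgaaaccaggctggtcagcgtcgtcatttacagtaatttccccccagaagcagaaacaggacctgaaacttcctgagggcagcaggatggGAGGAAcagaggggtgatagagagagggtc
Cd163: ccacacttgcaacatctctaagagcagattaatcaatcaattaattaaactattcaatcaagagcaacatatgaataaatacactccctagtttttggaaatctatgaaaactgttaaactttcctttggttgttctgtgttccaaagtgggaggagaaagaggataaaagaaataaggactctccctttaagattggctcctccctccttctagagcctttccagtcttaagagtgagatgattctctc
Promoters of 7 of the 10 members were matched in RefSeq. The letters GAGGAA stood in 3 of these 7 (Marco, Mrc1 and C1qb), and in 23.3% of 32851 mouse promoters of the same length. In Marco the match began 146 bases before the start and in C1qb 30 bases before it. These are matches of letters and not measured sites.

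Libraries held 9229861 to 16935961 counts. Values are given as CPM, the usual scaling of counts to a common library total (after TMM factors), and 3 counts in 1 library were worth 0.201 to 0.309 CPM. The tissue markers were in place: 10 distal colon genes summed to 3768 to 15260 CPM and 6 small intestine genes to 4.32 to 11.3 CPM. Y-linked transcripts (233 to 248 CPM in 3 libraries, at most 0.183 in the others) showed that both ΔNFκB untreated libraries and WT untreated replicate 2 came from males and the other 5 libraries from females. DSS and sex therefore cannot be told apart within the ΔNFκB line, while the comparison of genotypes after DSS was made within females. A sex term, tried as an alternative, rests on the WT untreated pair alone, since no other group held both sexes. The share of ribosomal RNA-like transcripts was 0.690% to 1.83% without DSS and 3.46% to 6.70% with it; their part in the results was not tested. WT untreated replicate 2, the male library of that pair, stood apart with mesothelial and fat genes (Upk3b 10.0 CPM, at most 0.868 elsewhere; Adipoq 10.7, at most 2.15 elsewhere). ΔNFκB untreated replicate 1 stood apart with lymphocyte and immature neutrophil genes (Cd8a 4.09 CPM against 0.244 in its partner library, and Ngp 4.57 against 0). Only some results are given with and without these libraries. For Csf1r with DSS in WT no value without WT untreated replicate 2 is given. In bulk tissue, fewer cells of a type and less RNA per cell cannot be told apart.

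In untreated WT colon the complement genes were the most abundant members for their length. Divided by exon length in kilobases, C1qb stood at 14.8 ± 5.13 CPM per kb (SD, n = 2) and C1qa at 11.8 ± 3.03. Next came Mrc1 at 6.97 ± 1.28, Csf1r at 5.76 ± 1.56 and Adgre1 at 4.38 ± 2.02 CPM per kb. Cd163 (2.18 ± 0.475), Ccr2 (1.29 ± 0.524) and Cx3cr1 (1.28 ± 0.968) were lower, and Chil3 (0.098 ± 0.138) and Marco (0.021 ± 0.029) were near 0. Of the neighbours in this order, C1qb and C1qa overlapped between the libraries, as did Mrc1 and Csf1r, Csf1r and Adgre1, Ccr2 and Cx3cr1, and Chil3 and Marco, and Cx3cr1 overlapped Cd163 as well. C1qa and Mrc1, Adgre1 and Cd163, Cd163 and Ccr2, and Cx3cr1 and Chil3 did not overlap. After DSS the order in WT colon was headed by Chil3 at 37.4 ± 6.44 CPM per kb, above C1qb at 21.6 ± 7.54. In ΔNFκB colon after DSS, C1qb (12.6 ± 1.41) and C1qa (11.7 ± 1.21) still headed the order, with Chil3 at 4.94 ± 0.421 CPM per kb.

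**Figure D1:**
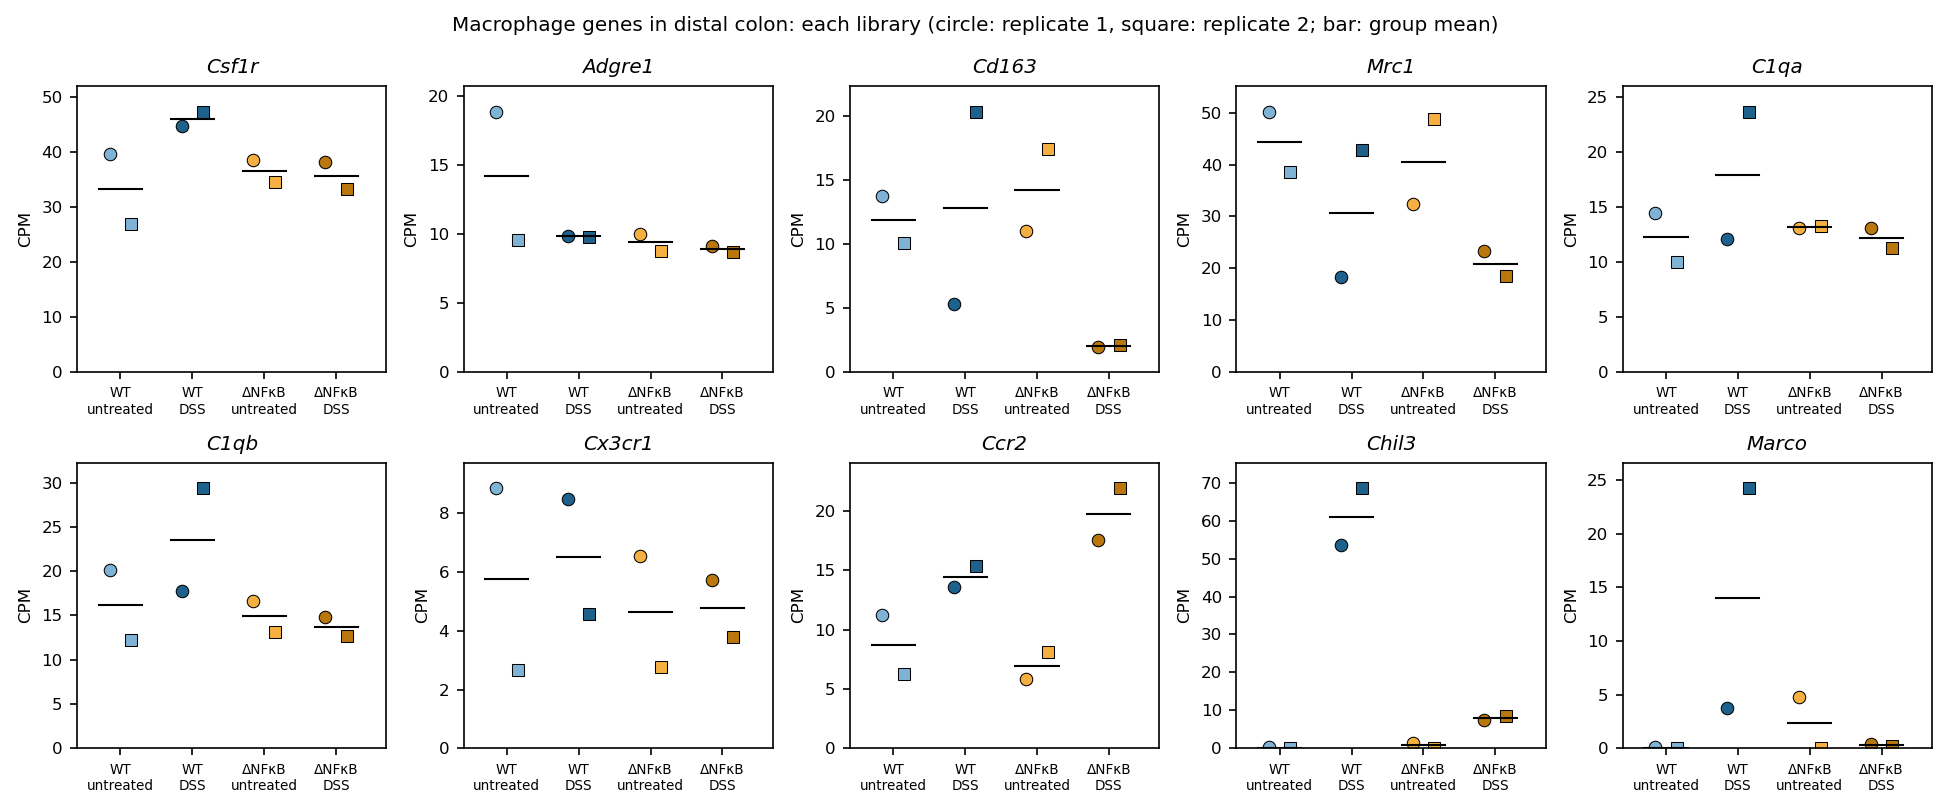
Level of each of the 10 genes in CPM (y axis, from 0, a scale per gene) in the 4 groups (x axis), with 1 point per library (circle for replicate 1, square for replicate 2) and a bar at the group mean. Chil3 is highest in both WT DSS libraries (53.6 and 68.5 CPM), Cd163 is lowest in both ΔNFκB DSS libraries (1.94 and 2.06 CPM), and Marco is spread widely within WT DSS and ΔNFκB untreated.

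DSS changed few of these genes at the threshold used, an edgeR quasi-likelihood adjusted p below 0.05 over all genes. In WT colon 2 of the 10 rose (Chil3 and Marco) and 0 fell, where 36.1% of the 17522 genes tested passed (17.3% higher and 18.8% lower). In ΔNFκB colon 2 rose (Ccr2 and Chil3) and 1 fell (Cd163), where 35.4% of all genes passed (16.2% higher and 19.2% lower). Both counts are near or below the share over all genes and set the members apart in neither line. The median log2 fold change of the members was 0.51 in WT and -0.10 in ΔNFκB mice, beside medians of 0.0024 and -0.038 over all genes tested. The groups did not overlap for 4 of the 10 members in each genotype, where 71.4% of all genes tested did not overlap in WT and 71.7% in ΔNFκB mice.

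Csf1r, the receptor for CSF1 and IL-34 (chromosome 18, 61100598 to 61132149, mm10), stood at 39.6 and 26.9 CPM in untreated WT libraries and at 44.7 and 47.4 CPM with DSS. In ΔNFκB libraries it stood at 38.7 and 34.7 CPM untreated and at 38.1 and 33.3 CPM with DSS. The WT groups did not overlap, with both DSS libraries above both untreated ones, and the ΔNFκB groups lay on top of each other. The log2 fold change with DSS was 0.47 ± 0.18 (SE) in WT (edgeR adjusted p = 0.0746) and -0.04 ± 0.18 in ΔNFκB mice (0.895). The exons of Csf1r share 15.1% of their bases with an antisense gene, Hmgxb3, and the strand setting of the counting is not given in the sources used here. Adgre1, the gene of the F4/80 antigen (chromosome 17, 57358691 to 57483527), was at 18.8 CPM in WT untreated replicate 1 and between 8.64 and 10.0 CPM in each of the 7 other libraries. Its log2 fold change in WT, -0.53 ± 0.29 (edgeR adjusted p = 0.186), came from that library, since it was 0.07 without it, and it was -0.90 (adjusted p = 0.0167) without WT untreated replicate 2. Neither lineage gene passed the threshold with DSS in either line.

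The ligands of this receptor were measured beside it. Il34, made by epithelial and stromal cells, was at 7.65 and 7.23 CPM in untreated WT colon and at 12.0 and 18.5 with DSS, a log2 rise of 1.03 ± 0.23 (edgeR adjusted p = 0.0113). The call ended without WT untreated replicate 2 (1.03, adjusted p = 0.0513) and without WT DSS replicate 2 (0.68, 0.0815). In ΔNFκB colon Il34 went from 5.98 and 7.23 CPM to 8.49 and 8.95 (0.40, adjusted p = 0.230). Csf1 gave 0.61 ± 0.27 (adjusted p = 0.115) in WT and -0.11 ± 0.28 (0.782) in ΔNFκB mice. Leaving out 1 library moved the WT value of Csf1 to between 0.30 and 1.09. Spi1, which encodes PU.1 and drives Csf1r in myeloid cells, rose in WT from 2.63 and 1.27 CPM to 17.4 and 9.60 CPM (2.80 ± 0.41, adjusted p = 0.00193). In ΔNFκB colon it went from 3.31 and 2.52 to 4.91 and 6.07 CPM (0.91 ± 0.41, adjusted p = 0.116).

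C1qa and C1qb encode chains of C1q and lie beside C1qc on chromosome 4 (C1qa 136895917 to 136898803, C1qb 136880129 to 136886187, C1qc 136889804 to 136893065, all on the minus strand). C1qa was at 14.5 and 10.0 CPM in untreated WT, 12.2 and 23.7 CPM in WT with DSS, 13.1 and 13.3 CPM in untreated ΔNFκB, and 13.1 and 11.3 CPM in ΔNFκB with DSS. C1qb was at 20.1 and 12.2, 17.7 and 29.3, 16.7 and 13.2, and 14.8 and 12.7 CPM in the same order. WT DSS replicate 2 held the highest value of both genes, and the untreated and DSS groups overlapped in both genotypes. In WT mice the log2 fold changes were 0.55 ± 0.31 for C1qa (edgeR adjusted p = 0.190) and 0.55 ± 0.30 for C1qb (0.180). Without WT DSS replicate 2 they were -0.01 and 0.14, and without WT DSS replicate 1 that of C1qa was 0.95 (adjusted p = 0.0353). In ΔNFκB mice they were -0.11 ± 0.31 (0.808) and -0.12 ± 0.31 (0.793). The third chain, C1qc, had log2 fold changes of 0.38 ± 0.30 in WT (0.342) and -0.73 ± 0.31 in ΔNFκB mice (0.102), so no C1q chain passed the threshold with DSS in either genotype. Of 10 other genes of the C1 complex and early classical pathway (C1qc among them), 5 rose and 0 fell in WT, where 17.3% of all genes tested rose. In ΔNFκB mice 1 rose and 0 fell, where 16.2% of all genes rose. The median log2 fold changes of these 10 genes were 1.55 in WT and -0.01 in ΔNFκB mice. C1ra, a protease of the C1 complex, rose by 1.44 ± 0.26 in WT (adjusted p = 0.00441), C4b, a component that the C1 proteases cleave, by 1.99 ± 0.39 (0.00654), and C5ar1, the receptor for C5a on myeloid cells, by 2.17 ± 0.30 (0.00152). The gene that rose in ΔNFκB mice was C2 (2.53 ± 0.45, 0.00381), and 46.9% of its exon bases are shared with other genes, so its counts are uncertain.

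Cd163 (chromosome 6, 124304656 to 124330527) was the 1 member of the 10 that fell at the threshold, and it did so in the ΔNFκB line. It was at 11.0 and 17.4 CPM in untreated ΔNFκB libraries and at 1.94 and 2.06 CPM with DSS, so every DSS value lay below every untreated one. The log2 fold change was -2.82 ± 0.61 (edgeR adjusted p = 0.00891). Without ΔNFκB DSS replicate 1 it was -2.78 (adjusted p = 0.0600), without ΔNFκB DSS replicate 2 it was -2.84 (0.0654), and with a sex term it was -3.27 (0.0547). In WT colon Cd163 was at 13.7 and 10.0 CPM untreated and at 5.30 and 20.3 CPM with DSS. The WT DSS libraries lay on either side of the untreated ones, and the log2 fold change was 0.11 ± 0.51 (0.878). Mrc1 (chromosome 2, 14229392 to 14332057) was at 50.1 and 38.6 CPM in untreated WT and 18.3 and 42.8 CPM with DSS, and at 32.4 and 48.7 CPM in untreated ΔNFκB and 23.2 and 18.4 CPM with DSS. For Mrc1, WT DSS replicate 2 lay within the untreated range, while both ΔNFκB DSS libraries lay below both untreated ones. Its log2 fold changes were -0.54 ± 0.36 in WT (0.273) and -0.96 ± 0.37 in ΔNFκB mice (0.0769). Leaving out 1 library moved the WT value of Mrc1 to between -1.28 (without WT DSS replicate 2) and -0.05.

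Lymphatic endothelial cells also carry Mrc1, which passed in neither line and in WT DSS replicate 2 lay within the untreated range. The marker genes of these cells summed lower with DSS in both lines. The summed level of 7 such genes was 143 to 163 CPM in untreated WT, 59.1 to 97.1 in WT with DSS, 145 to 167 in untreated ΔNFκB and 19.3 to 30.8 CPM in ΔNFκB with DSS. Of the 7, 1 rose and 3 fell in WT and 6 fell in ΔNFκB mice, none of them was at 0 in any library, and the median log2 fold changes were -1.0 and -2.40. Among all genes tested 17.3% rose and 18.8% fell in WT, and 19.2% fell in ΔNFκB mice. Lyve1, which marks lymphatic vessels and some macrophages, fell by 1.38 on the log2 scale in WT (edgeR adjusted p = 0.00469) and by 2.40 in ΔNFκB mice (0.00056). The part of these cells in the Mrc1 values was not tested.

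Ccr2, the receptor that brings monocytes into tissue (chromosome 9, 124101950 to 124113557), rose with DSS in ΔNFκB colon. It was at 5.83 and 8.12 CPM untreated and at 17.6 and 21.9 CPM with DSS, with no overlap, and the log2 fold change was 1.50 ± 0.30 (edgeR adjusted p = 0.00588). With a sex term it was 0.65 (adjusted p = 0.267). In WT colon Ccr2 went from 11.2 and 6.23 CPM to 13.6 and 15.4 CPM, also without overlap, with 0.74 ± 0.29 (0.0804). Leaving out 1 library moved the WT value of Ccr2 to between 0.40 and 1.25, the latter without WT untreated replicate 1. Its ligands were low and rose in both lines. Ccl2 rose by 3.45 ± 0.68 in WT (0.00652) and by 3.10 ± 0.85 in ΔNFκB mice (0.0232), and Ccl7 by 2.97 ± 0.66 (0.0105) and 3.29 ± 0.63 (0.00521). The highest Ccl2 level was 7.50 CPM, in WT DSS replicate 2. The calls for Ccl2 in ΔNFκB mice ended without either ΔNFκB untreated library (3.39, adjusted p = 0.0909, without replicate 1; 2.89, 0.106, without replicate 2) or without ΔNFκB DSS replicate 2 (2.46, 0.138). That for Ccl7 in WT ended without WT DSS replicate 2 (2.73, 0.0581). Both ΔNFκB calls ended with a sex term (Ccl2 2.38, 0.340; Ccl7 4.31, 0.0769).

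Cx3cr1, a receptor of mature gut macrophages (chromosome 9, 119901616 to 120069879), separated by neither treatment nor genotype. It was at 8.85 and 2.68 CPM in untreated WT, 8.48 and 4.57 CPM in WT with DSS, 6.54 and 2.76 CPM in untreated ΔNFκB, and 5.73 and 3.81 CPM in ΔNFκB with DSS. The libraries of a group differed more than the group means did, and every pair of groups overlapped. The log2 fold changes with DSS were 0.19 ± 0.60 in WT (edgeR adjusted p = 0.824) and 0.03 ± 0.62 in ΔNFκB mice (0.970). Its membrane-bound ligand Cx3cl1 fell in both lines, by 0.62 on the log2 scale in WT (0.0364) and by 1.07 in ΔNFκB mice (0.00395). The WT call ended in 5 of the 8 fits that left out 1 library (-0.65 to -0.43, with adjusted p of 0.0572 to 0.200): those without either WT untreated library, without WT DSS replicate 2 and without either ΔNFκB DSS library. Both calls ended with a sex term (-0.54, 0.125, and -0.93, 0.0900).

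Chil3 (chromosome 3, 106147554 to 106167564) had the largest fitted rise of the members. It was at 0.319 and 0 CPM in untreated WT libraries (4 and 0 counts) and at 53.6 and 68.5 CPM with DSS (556 and 749 counts), a log2 fold change of 8.60 ± 0.77 (edgeR adjusted p = 0.000234). In ΔNFκB colon it was at 1.42 and 0.0812 CPM untreated (18 counts and 1 count) and at 7.57 and 8.54 CPM with DSS (74 and 83 counts), with 3.39 ± 0.66 (0.00549). DSS and untreated libraries did not overlap in either line, and the higher untreated ΔNFκB value came from the library that stood apart. Without it the ΔNFκB value was 6.46 (0.00348), and without ΔNFκB untreated replicate 2 it was 2.51 (0.0138). Without WT untreated replicate 1, the remaining control held 0 counts and the fitted value of 12.50 (0.000871) depends on the prior count. With female WT libraries only, that is without WT untreated replicate 2, the value was 7.57 (0.00124). With a sex term, which for Chil3 rests on the 4 and 0 counts of the WT untreated pair, the ΔNFκB value was -1.55 (0.726), so it says little of Chil3. DESeq2 gave the ΔNFκB value an adjusted p of 0.0551. Reads of Chil3 can be shared with its close relative Chil4, which was at or below 0.193 CPM in all libraries.

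Immature neutrophils also make Chil3, and neutrophil genes rose with it. The summed level of 15 neutrophil genes was 99.4 to 233 CPM in untreated WT, 566 to 718 in WT with DSS, 93.1 to 136 in untreated ΔNFκB and 177 to 220 CPM in ΔNFκB with DSS. Ly6g alone made up 96.5 to 230 CPM of the sum in untreated WT and 74.2 to 134 in untreated ΔNFκB. Without Ly6g the other 14 summed to 2.87 to 3.15, 365 to 473, 1.95 to 18.8 and 98.8 to 107 CPM in the same order of groups. Of the 12 tested, 11 rose in WT and 10 in ΔNFκB mice, where 17.3% and 16.2% of all genes tested rose. The median log2 fold changes of the 12 were 7.35 and 3.60 (6.12 and 3.53 with genes near 0 counts at their bounds). Il1r2, a decoy receptor abundant in neutrophils, rose by 5.91 ± 0.27 (edgeR adjusted p = 1.8e-05) and 3.62 ± 0.34 (0.000293). Ngp, a granule gene of immature neutrophils, was at 18.9 and 24.1 CPM in WT DSS libraries, at 4.57 CPM in ΔNFκB untreated replicate 1, at 0.205 and 0.720 CPM in ΔNFκB DSS libraries and at 0 in the other 3. Elane and Mpo, made at an earlier stage, were at 0 in all libraries except ΔNFκB untreated replicate 1, where each stood at 0.236 CPM. The part of neutrophils in the Chil3 values was not tested.

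Marco (chromosome 1, 120474538 to 120505024) was the most uneven member. It had 1 and 0 counts in untreated WT and 39 and 265 counts (3.76 and 24.2 CPM) in WT with DSS, a ratio of summed levels of 392 with a counting interval of 69.8 to 15533. In ΔNFκB colon it had 61 and 0 counts untreated (4.80 and 0 CPM) and 4 and 2 counts with DSS (0.409 and 0.206 CPM). Both WT DSS libraries lay above both WT untreated ones but far from each other, while in the ΔNFκB line the untreated libraries lay on either side of the DSS ones. The fitted log2 fold change in WT was 8.21 ± 2.01 (edgeR adjusted p = 0.0154), a value that depends on the prior count. The call ended without WT untreated replicate 1 (10.39, 0.0545), WT untreated replicate 2 (7.32, 0.0802) or WT DSS replicate 2 (6.32, 0.0787), and with a sex term (7.28, 0.0790). In ΔNFκB mice the value was -2.93 ± 1.76 (0.227), and 4.86 (0.421) without ΔNFκB untreated replicate 1.

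Marco was high in the same libraries as some genes of other cells, which were picked after their values were seen. Its 3 highest libraries were WT DSS replicate 2, ΔNFκB untreated replicate 1 and WT DSS replicate 1. These 3 were also the highest for Ngp and for Prg4, a gene of peritoneal large macrophages and mesothelium, which was at 3.76 and 9.78 CPM in WT DSS libraries, 2.20 CPM in ΔNFκB untreated replicate 1 and at most 0.812 CPM elsewhere. Other mesothelial genes did not have this order: Upk3b, Lrrn4 and Wt1 were highest in WT untreated replicate 2, and in ΔNFκB untreated replicate 1 Msln (0.709 CPM) and Upk3b (0.394) were below the partner library (1.38 and 0.650). The summed level of 10 T and NK cell genes was 19.3 to 24.6 CPM in WT DSS, 18.5 CPM in ΔNFκB untreated replicate 1, 1.14 CPM in its partner library, 18.1 to 18.5 CPM in ΔNFκB DSS and 2.79 to 4.49 CPM in untreated WT. The ΔNFκB DSS libraries thus held these genes with Marco at 0.409 and 0.206 CPM. Over 7 genes of mesothelium and peritoneal macrophages the summed level was 50.3 to 82.7 CPM in untreated WT, 139 to 183 in WT DSS, 62.8 to 67.9 in untreated ΔNFκB and 64.0 to 66.3 CPM in ΔNFκB DSS. Gata6 made up 36.7 to 59.3 CPM of it in every library, and the other 6 summed to 1.51 to 39.7, 92.5 to 147, 11.2 to 15.4 and 4.73 to 17.4 CPM in the same order of groups. In WT DSS most of the rest was Cxcl13 (55.3 and 114 CPM), which stroma also makes, and Msln (30.8 and 22.1), while Upk3b and Lrrn4 were at most 0.868 and 1.06 CPM there. Of these 7, 3 rose with DSS in WT, where 17.3% of all genes tested rose. After DSS 3 were lower in ΔNFκB mice, where 11.7% of all genes were. Prg4 was at 0 in WT untreated replicate 1. The part of these cells in the Marco values was not tested.

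**Figure D2:**
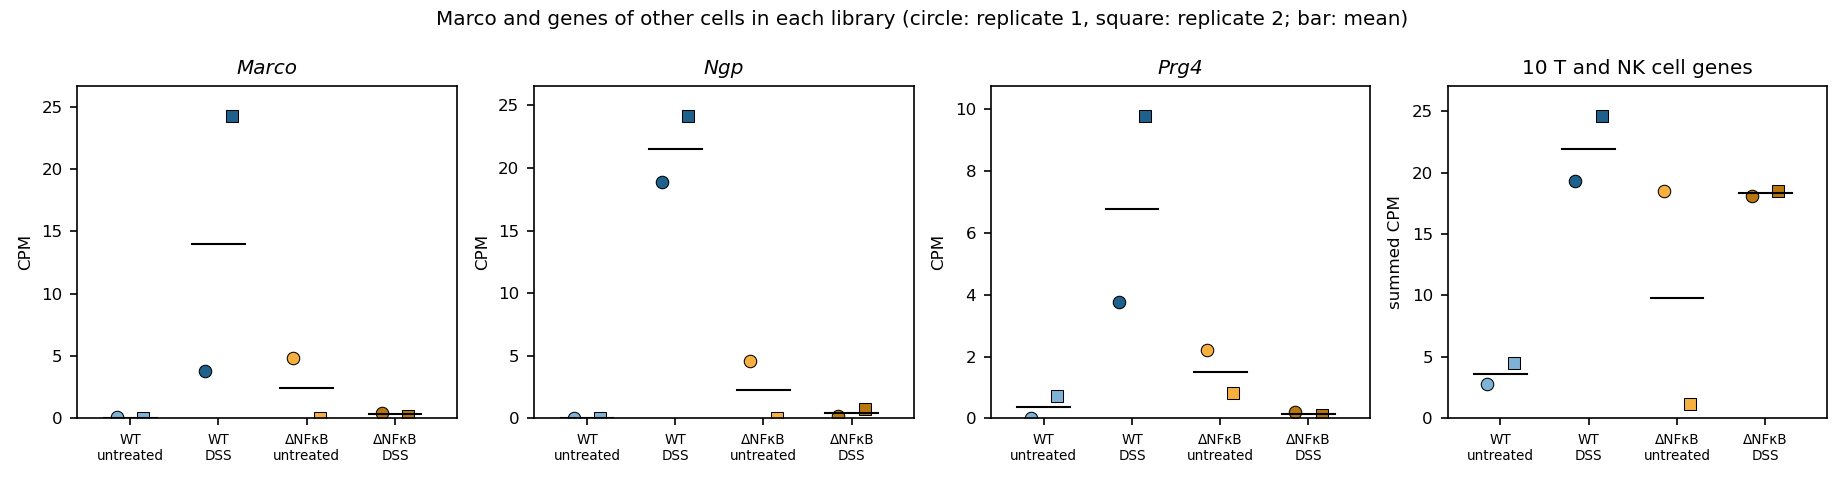
Marco, Ngp (immature neutrophils) and Prg4 (peritoneal macrophages and mesothelium) in CPM, and the summed CPM of 10 T and NK cell genes (y axes, from 0), in the 4 groups (x axis), with 1 point per library (circle for replicate 1, square for replicate 2) and a bar at the mean. Marco, Ngp and Prg4 are all higher in ΔNFκB untreated replicate 1 (4.80, 4.57 and 2.20 CPM) than in its partner library (0, 0 and 0.812 CPM).

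**Figure D3:**
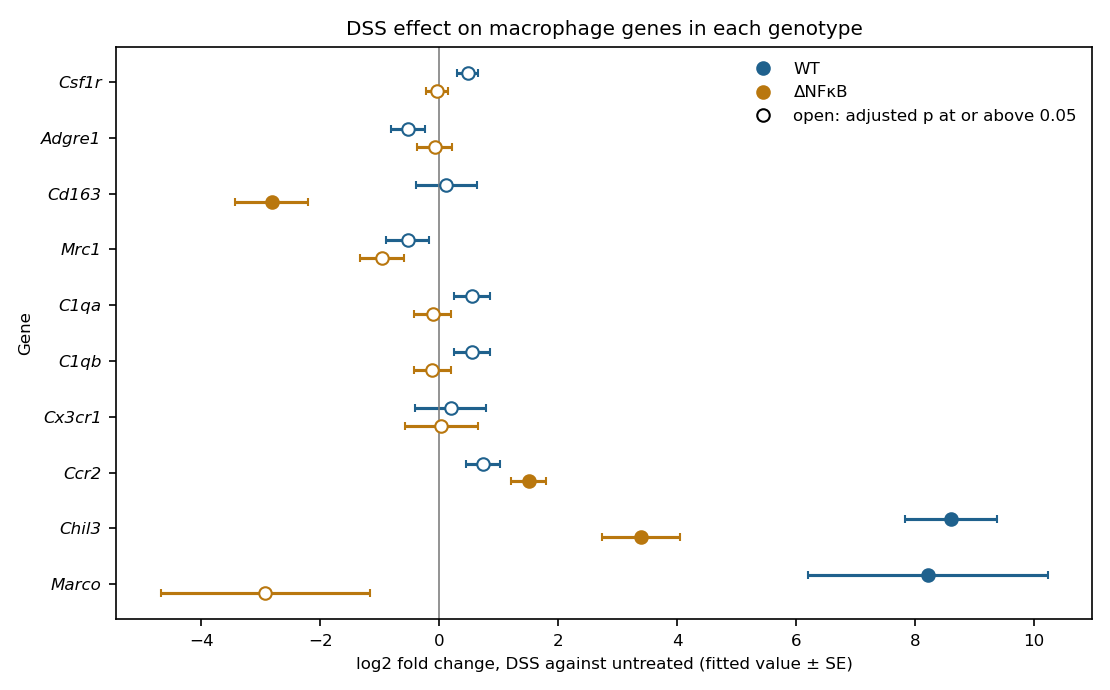
Fitted log2 fold change with DSS (x axis, ± SE) of each of the 10 genes (y axis) in WT (blue) and ΔNFκB mice (orange), from 2 libraries a group; filled points passed an edgeR adjusted p of 0.05. Only Chil3 passed in both lines (8.60 and 3.39), Marco in WT and Ccr2 and Cd163 in ΔNFκB mice; the fitted values of Marco rest on groups near 0 counts.

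Without DSS no member differed between the genotypes at the threshold, where 0.388% of all genes passed (0.0399% higher and 0.348% lower). Sex was unbalanced in this comparison, since both ΔNFκB untreated libraries but only replicate 2 of the WT untreated pair came from males. The count at an unadjusted p below 0.05 was 1 in edgeR (Marco, 61 and 0 counts against 1 and 0; ratio 67.0, counting interval 11.6 to 2690; edgeR adjusted p = 0.285), and DESeq2 also called 0. The median log2 difference of the members was -0.00019, beside 0.025 over all genes. Chil3 gave 2.29 ± 1.21 (0.390) and Adgre1 -0.59 ± 0.29 (0.356). Without ΔNFκB untreated replicate 1, Marco and Chil3 turned to -2.12 and -0.79. Every member's groups overlapped, where 45.2% of all genes did not. Among the growth factors, chemokines and regulators, Nr4a1, a nuclear receptor needed for patrolling monocytes and induced in many cell types, was higher in ΔNFκB colon (16.9 and 19.9 CPM against 4.22 and 6.83; 1.73 ± 0.25, 0.0383), a call that ended in 7 of the 8 fits that left out 1 library (1.58 to 2.1, with adjusted p of 0.0738 to 0.234), the exception being the fit without WT untreated replicate 1.

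After DSS 3 of the 10 members were lower in ΔNFκB than in WT colon and 0 were higher, where 20.0% of all genes passed (11.7% lower and 8.32% higher). The members' median log2 difference was -0.55, beside 0.028 over all genes, and the groups did not overlap for 7 of the 10, where 68.1% of all genes did not. Chil3, at 53.6 and 68.5 CPM in WT and 7.57 and 8.54 CPM in ΔNFκB libraries, differed by -2.92 ± 0.49 (edgeR adjusted p = 0.00700). Cd163, at 5.30 and 20.3 against 1.94 and 2.06 CPM, differed by -2.67 ± 0.62 (0.0215). Marco, at 3.76 and 24.2 against 0.409 and 0.206 CPM, differed by -5.46 ± 1.6 (0.0461). In all 3 genes both ΔNFκB libraries were below both WT libraries, and WT DSS replicate 2 held the highest value.

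The other 7 members did not pass, with log2 differences of -0.78 to 0.45 and adjusted p of 0.107 or more. C1qb gave -0.78 ± 0.31 (edgeR adjusted p = 0.107), C1qa -0.55 ± 0.31 (0.237), Mrc1 -0.56 ± 0.38 (0.322) and Csf1r -0.37 ± 0.18 (0.191). Ccr2 lay above 0 (17.6 and 21.9 against 13.6 and 15.4 CPM; 0.45 ± 0.28, 0.294). Without WT DSS replicate 2, Mrc1 and C1qa turned to 0.18 and 0.01. The 3 calls rested on few libraries. Cd163 did not pass without WT DSS replicate 2 (-1.40, 0.0857) or without ΔNFκB DSS replicate 1 (-2.63, 0.0979) or 2 (-2.76, 0.136). Chil3 did not pass without WT DSS replicate 2 (-2.73, 0.0551) or ΔNFκB DSS replicate 2 (-3.05, 0.0677), nor with DESeq2 (0.142). Marco passed in 3 of the 8 fits that left out 1 library: those without WT DSS replicate 1 and without either ΔNFκB untreated library. Its values in the other 5 were -6.02 to -3.57, with adjusted p of 0.0522 to 0.250, and it did not pass with DESeq2 (0.0972).

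The DSS effect itself differed between the genotypes for 3 of the 10 members, where 17.7% of all genes passed this test (9.07% lower and 8.63% higher in ΔNFκB mice). This test was unbalanced for sex, since both ΔNFκB untreated libraries came from males and all DSS libraries from females. The differences of the log2 effects were -2.93 ± 0.80 for Cd163 (edgeR adjusted p = 0.0402), -5.21 ± 1.26 for Chil3 (0.0294) and -11.14 ± 2.72 for Marco (0.0299), the last a value that depends on the prior count. The members' median was -0.59, beside -0.053 over all genes. Leaving out ΔNFκB untreated replicate 1 moved Chil3 to -2.18 (0.564) and Marco to -3.39 (0.972), while Cd163 was -3.26 (0.0748) without it. Cd163 passed in only 1 of the 8 fits that left out 1 library (without WT DSS replicate 1, -3.60, 0.0104), Chil3 in 2 (without WT untreated replicate 1, -9.09, and without ΔNFκB untreated replicate 2, -6.13; DESeq2 gave 0.0703) and Marco in 2 (without WT DSS replicate 1, -11.94, and without ΔNFκB untreated replicate 2, -12.16). The other members gave -0.67 to 0.77. Csf1r was at -0.51 ± 0.26 (0.196), C1qa at -0.66 ± 0.44 (0.311), C1qb at -0.67 ± 0.43 (0.297) and Ccr2 at 0.77 ± 0.41 (0.221), so a difference in their response to DSS was not shown.

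Other genes listed for tissue macrophages were measured as well, and other cells also carry some of them. Of 25 listed, 24 were tested: 5 rose and 3 fell with DSS in WT, 1 rose and 10 fell in ΔNFκB mice, and 1 was higher and 7 lower in ΔNFκB mice after DSS. The medians were 0.19, -1.0 and -0.83 on the log2 scale. Of all genes tested 17.3% rose and 18.8% fell with DSS in WT, and 16.2% rose and 19.2% fell in ΔNFκB mice. Between the genotypes after DSS 8.32% of all genes were higher and 11.7% lower in ΔNFκB mice. The WT counts of this list lay near the shares over all genes. Maf, a transcription factor of mature macrophages that other cells also carry, was at 19.9 and 16.9 CPM in WT DSS and 9.61 and 8.75 CPM in ΔNFκB DSS libraries, a log2 difference of -1.0 ± 0.15 (edgeR adjusted p = 0.00539; 0.0514 without ΔNFκB DSS replicate 2). F13a1, the coagulation factor XIII chain that accompanies Cd163 in many tissue macrophages, was at 30.2 and 35.7 against 3.07 and 4.01 CPM (-3.21 ± 0.34, 0.00220). Stab1, a scavenger receptor of macrophages and lymphatic or sinusoidal endothelium, was at 43.8 and 59.1 against 13.5 and 8.85 CPM (-2.20 ± 0.33, 0.00516; 0.0565 without ΔNFκB DSS replicate 2). In WT colon Il10ra, the interleukin-10 receptor that restrains gut macrophages, rose with DSS by 2.33 ± 0.40 (0.00362) and Gas6, a bridge to apoptotic cells, fell by 0.92 on the log2 scale (0.00212). Gas6 fell in ΔNFκB mice as well, by 1.11 (0.000902).

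Of 24 monocyte and inflammatory macrophage genes listed and tested, 17 rose and 1 fell with DSS in WT. In ΔNFκB mice 12 rose, 2 fell and 10 did not pass, with medians of 1.36 there and 4.02 in WT. After DSS 15 were lower and 0 higher in ΔNFκB mice (median -1.71), while 6 of the 24 passed the test of a different DSS effect, all lower. The shares of all genes that passed in these comparisons were 36.1%, 35.4%, 20.0% and 17.7%, in the same order. Arg1, the arginase of alternatively activated and tissue-repair macrophages, was at 14.4 and 11.9 CPM in WT DSS and at 0.613 and 0.617 CPM in ΔNFκB DSS libraries, a log2 difference of -4.39 ± 0.49 (edgeR adjusted p = 0.00260). In untreated WT it had 3 counts, so its rise there was 119.9-fold with a counting interval of 40.6 to 585. Clec4d, a C-type lectin of monocytes and neutrophils, rose in WT by 5.06 ± 0.38 (0.000151) and was lower in ΔNFκB mice after DSS by -2.70 ± 0.32 (0.00283). Nos2, the inducible nitric oxide synthase, which epithelium also makes, rose in ΔNFκB mice to 385 and 763 CPM (9.09 ± 0.83, 0.000271) and stood at 594 and 447 CPM in WT DSS libraries. Thbs1, a matrix protein of monocytes, platelets and stroma, was at 383 CPM in both WT DSS libraries and at 37.4 and 33.5 CPM in ΔNFκB DSS libraries (-3.43 ± 0.16, 8.90e-05). It rose with DSS in WT (2.68 ± 0.15, 4.06e-05) and fell in ΔNFκB mice (-1.26 ± 0.15, 0.000672).

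**Figure D4:**
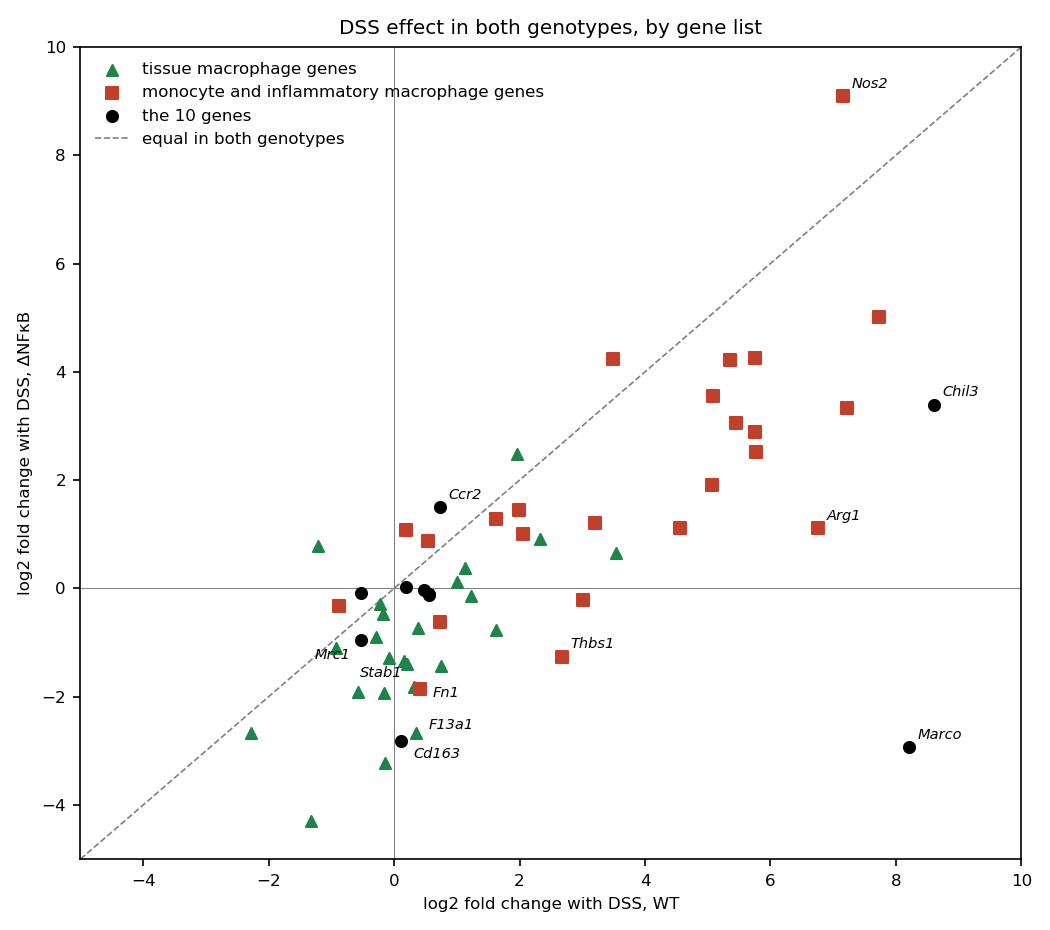
Fitted log2 fold change with DSS in WT (x axis) and ΔNFκB mice (y axis) for tissue macrophage genes (green triangles), monocyte and inflammatory macrophage genes (red squares) and the 10 genes of the report (black circles); the dashed line marks equal values. The axes share no library. Marco (8.21 and -2.93), Arg1 and Thbs1 lie far below the line.

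Scavenger receptors other than Cd163, Mrc1 and Marco showed 4 rises and 1 fall in WT and 3 rises and 5 falls in ΔNFκB mice among 12 tested of 13. After DSS 7 were lower and 0 higher in ΔNFκB mice, and the medians were 0.67, -0.54 and -1.71. For all genes tested, 36.1%, 35.4% and 20.0% passed in the same order of comparisons. Msr1, a class A receptor as Marco is, rose in WT by 1.98 ± 0.36 (edgeR adjusted p = 0.00472). Olr1, a receptor for oxidised lipoprotein, rose in WT by 4.99 ± 0.55 (0.000562) and was lower after DSS in ΔNFκB mice by -3.26 ± 0.48 (0.00490; 0.0526 without ΔNFκB DSS replicate 2). Cd36, a fatty acid receptor of macrophages, fat and capillaries, and Colec12, a scavenger receptor of endothelium and stroma, were both lower in ΔNFκB mice after DSS (-1.91 ± 0.20, 0.00220, and -2.13 ± 0.18, 0.00126). Chil3's relative Chil1, made by macrophages, neutrophils and epithelium, stood at 14.6 and 13.3 CPM in WT DSS and at 1.23 and 0.514 CPM in ΔNFκB DSS libraries (-3.98 ± 0.42, 0.00220). Of 10 chitinase-like and alternative activation genes, 7 were tested: 3 rose and 1 fell in WT, and 2 rose and 1 fell in ΔNFκB mice. Retnla, a gene of alternatively activated macrophages and epithelium, had 45 and 109 counts in untreated WT and 0 and 1 with DSS, a 119-fold lower level with a counting interval of 21.1 to 4748. In ΔNFκB mice it had 38 and 63 counts untreated and 1 and 2 with DSS, a 26.2-fold lower level with a counting interval of 8.73 to 129.

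Of 19 growth factors, chemokines and regulators of the lineage 15 were tested. In WT 11 rose and 1 fell, in ΔNFκB mice 7 rose, 2 fell and 6 did not pass, and after DSS 8 were lower and 1 higher in ΔNFκB mice. The shares over all genes were 36.1%, 35.4% and 20.0% passing. The medians of the 15 were 1.90, 0.86 and -0.80. Il4ra, the receptor chain for interleukin-4 and interleukin-13 that feeds alternative activation, rose by 2.54 ± 0.18 in WT (edgeR adjusted p = 0.000123) and 1.98 ± 0.18 in ΔNFκB mice (0.000270). Spi1 was lower in ΔNFκB mice after DSS, at 4.91 and 6.07 against 17.4 and 9.60 CPM (-1.30 ± 0.38, 0.0463). That call ended in 6 of the 8 fits that left out 1 library (-1.67 to -0.80, with adjusted p of 0.0545 to 0.256), the exceptions being those without either WT untreated library. Il34 was lower as well (-0.80 ± 0.24, 0.0461), and its call ended with DESeq2 (0.0873), with a sex term (0.0516) and without any of WT DSS replicate 2, the ΔNFκB untreated libraries and the ΔNFκB DSS libraries (-0.88 to -0.45, with adjusted p of 0.0552 to 0.287). Nr4a1 stood at 19.9 and 15.9 CPM in WT DSS and 5.11 and 5.56 CPM in ΔNFκB DSS libraries (-1.74 ± 0.25, 0.00472), the reverse of its order without DSS, and its DSS effect differed between the lines by -3.47 ± 0.35 (0.00421).

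Genes of some cells that could add to these values moved with the genotype after DSS, where 11.7% of all genes were lower and 8.32% higher in ΔNFκB mice. Neutrophil genes were lower in ΔNFκB mice for 9 of 12 tested and higher for 0 (median -2.13), among them Il1r2 (-3.13 ± 0.22, edgeR adjusted p = 0.000796) and Mmp9, a gelatinase of neutrophil granules (-2.55 ± 0.20, 0.00108). Lymphatic endothelial genes were lower for 5 of 7 (median -1.45), among them Reln (-2.45 ± 0.42, 0.00766; 0.0694 without ΔNFκB DSS replicate 2) and Mmrn1 (-1.90 ± 0.36, 0.0106; 0.0988 without it). The 7 T and NK cell genes tested of 10 showed 0 calls after DSS. Dendritic cell genes showed 1 higher and 0 lower of 10. Of 6 eosinophil genes 2 could be tested, with 0 higher and 1 lower, and Epx and Ear6 were at 0 in all libraries. Il5ra, of the same list, stood at 27.8 and 14.6 CPM in WT DSS and at 0.921 and 0.206 CPM in ΔNFκB DSS libraries. The part of neutrophils, lymphatic endothelium and other cells in the differences of Cd163, Chil3 and Marco was not tested.

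Among the members, the closest patterns over the 8 libraries were those of C1qa and C1qb (Pearson r = 0.906 of log2 CPM), Cd163 and Mrc1 (0.866) and Csf1r and C1qb (0.841). Over 12471 other genes with a mean log2 CPM above 1, the genes most like Chil3 were Pirb (r = 0.995), an inhibitory receptor of myeloid cells, and Fyb (0.991), an adaptor of T and myeloid cells. Cd163 was closest to Cdkn1c (0.986), a cyclin-dependent kinase inhibitor, and Ackr3 (0.978), an atypical chemokine receptor. C1qb was closest to Chsy3 (0.973), a chondroitin synthase, and Tmem119 (0.969), a gene known from microglia and also made by stroma. Csf1r was closest to Chst1 (0.976), a sulfotransferase, and to its own ligand Csf1 (0.974). The 8 points share libraries and their depth and are 4 groups of 2, so these values describe likeness of pattern and carry no test.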

How the data were processed

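Total RNA of distal colon was sequenced with a TruSeq Total RNA kit on a HiSeqX as paired reads, per the labels' protocols. HISAT2 2.1, SAMtools 1.8, featureCounts, Subread 1.6.2 and the mm10 genome are named in the submitters' processing notes; the annotation release, the strand setting and how reads with several matches were shared out are not stated there. The authors deposited estimated counts without normalization by gene symbol and by Ensembl ID, and 18.8% of the nonzero values were not exactly whole. Whole counts had been planned for, so values were summed over the 115 symbols on several lines (0 of them members) and rounded. The 2 tables had 0 differing values after each column was sorted, a comparison that did not match them gene by gene. Positions and exon lengths come from GENCODE annotation of mm10.

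Groups came from the labels. Low genes were dropped with filterByExpr and libraries scaled by TMM (factors 0.882 to 1.15), leaving 17522 of 30454 symbols with a count. In R 4.3.3, 1 edgeR 4.0.16 quasi-likelihood fit of the 4 group means (4 residual and 4.28 prior degrees of freedom; biological coefficient of variation 17.1%) gave log2 fold changes and two-sided F tests, adjusted by the Benjamini-Hochberg method over all genes tested, with a threshold of 0.05. Each SE was derived as the size of the log2 fold change over the root of its F. Groups of 2 allow neither a useful exact permutation test nor a test for outlying samples. The code was tested on simulated data. A ratio to a group with 1 to 3 counts has an exact 95% counting interval, and list medians were also taken with genes at 0 counts set to a bound (3 counts per group); both reflect counting error alone, because reads may be copies of 1 molecule. Sex was read as male above 5 CPM of Y-linked transcripts.

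The members and the gene lists were chosen with earlier results of these data known. From each list the text names at most 3 genes, those with the smallest p among the list's called genes, plus the ligands of Csf1r, Ccr2 and Cx3cr1, C1qc and Spi1; marker genes given only as levels were chosen after their values were seen. Likeness used Pearson r of log2 CPM with a prior count of 2. Alternatives were DESeq2 1.42.0, its size factors in edgeR, no count filter, a replicate block, a sex term and leaving out each library; the lone remaining library is assumed to vary like the other groups.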

Additional observations from a re-analysis of the deposited data

Results flagged for a closer look

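The DSS effect differed between the genotypes, by the test of the difference itself at an edgeR adjusted p below 0.05, for 3102 genes, or 17.7% of all genes tested. The 3 members among them and 7 genes of the macrophage lists, given here with the smallest p of their lists, follow. Sex was unbalanced in this test, as stated above. The members were Cd163 (adjusted p = 0.0402), Chil3 (0.0294) and Marco (0.0299), and all 3 effects were lower in ΔNFκB mice. Among tissue macrophage genes 1 effect was higher and 5 were lower in ΔNFκB mice, and those with the smallest p were Maf (-1.50 on the log2 scale, 0.00764), F13a1 (-3.03, 0.00796) and Stab1 (-2.13, 0.0190). Among monocyte and inflammatory genes 6 were lower, and those with the smallest p were Thbs1 (-3.94, 0.000397), Fn1 (-2.26, 0.0139), the gene of fibronectin, which stroma also makes, and Arg1 (-5.65, 0.0144). Among growth factors, chemokines and regulators 4 were lower, and Nr4a1 had the smallest p (-3.47, 0.00421). Without 1 library Stab1 did not pass in 3 of 8 fits (without WT DSS replicate 2, adjusted p = 0.0654; ΔNFκB untreated replicate 1, 0.0585; ΔNFκB DSS replicate 2, 0.0849), Arg1 in 2 (ΔNFκB untreated replicate 1, 0.0743; ΔNFκB DSS replicate 2, 0.0561) and Fn1 in 1 (ΔNFκB DSS replicate 2, 0.0688), while Maf, F13a1, Thbs1 and Nr4a1 passed in all 8.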

How the results depend on the processing

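The text's 109 tested values were recomputed under every alternative: without 1 library, 773 kept their direction and side of the threshold, 80 lost the threshold, 10 gained it and 9 turned; under the other settings 511, 21, 11 and 2 did. Members called fell from 3 to 1 with a sex term (DSS in ΔNFκB mice) and to 1 with DESeq2 (genotypes after DSS). Without 1 library they ranged from 0 to 3 for genotypes after DSS and from 0 to 2 for the difference of effects. With a sex term, which rests on the WT untreated pair alone, Chil3 (-1.55) and Spi1 (-0.13) turned for DSS in ΔNFκB mice. Log2 values that turned without 1 library ranged, for DSS in WT, from -0.90 to 0.072 (Adgre1), -0.012 to 0.95 (C1qa) and -0.11 to 0.75 (C1qc). For DSS in ΔNFκB mice they ranged from -3.90 to 4.86 (Marco) and -0.41 to 0.15 (Csf1), without DSS from -0.79 to 6.12 (Chil3) and -2.12 to 7.78 (Marco), and after DSS from -1.04 to 0.18 (Mrc1) and -0.96 to 0.0069 (C1qa). The cause was not tested.

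Calls over all genes changed by more than 1.5 times as follows. DSS in WT gave 6317 calls, and 3577 or 3400 without WT DSS replicate 1 or 2. DSS in ΔNFκB mice gave 6199, and 3343 with a sex term and 3455 to 4035 without ΔNFκB untreated replicate 1 or either ΔNFκB DSS library. Without DSS the genotypes gave 68 calls, 264 with DESeq2, 330 without the filter, 0 with the block, 176 with a sex term and 0 to 201 without 1 library. After DSS they gave 3499, and 507 to 1843 without 1 DSS library. The difference gave 3102, and 513 to 1603 without WT untreated replicate 2, any DSS library or ΔNFκB untreated replicate 1.

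Same-numbered libraries share only a number: their deviations correlated at -0.126 to 0.244. With the replicate block the members called were 2 of 10 after DSS (Marco -5.51, adjusted p = 0.0647) and 3, 3, 0 and 3 in the other comparisons. Depth limits Marco and untreated Chil3, where 1 to 18 counts decide a value.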

Other observations

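The 10 genes together summed to 116 to 177 CPM in untreated WT libraries, 188 to 286 CPM in WT DSS, 140 to 147 CPM in untreated ΔNFκB and 121 to 132 CPM in ΔNFκB DSS libraries. The genotypes overlapped in this sum without DSS and did not overlap after it, where 68.1% of all genes tested did not. Chil3 alone made up 53.6 and 68.5 CPM of it in WT DSS and 7.57 and 8.54 CPM in ΔNFκB DSS libraries. Marco made up 3.76 and 24.2 CPM against 0.409 and 0.206 CPM. The 25 tissue macrophage genes summed to 885 to 972 CPM in untreated WT, 831 to 1002 in WT DSS, 944 to 978 in untreated ΔNFκB and 619 to 624 in ΔNFκB DSS libraries, lowest in the last. Ctsb was the most abundant of them, and the other 24 summed to 464 to 594, 509 to 641, 594 to 604 and 314 to 333 CPM in the same order of groups. Gas6 made up 189 to 230, 106 to 115, 220 to 263 and 108 to 116 CPM of this. The 10 genes of the distal colon epithelium summed to 3768 to 4382 CPM in WT DSS and 7536 to 8799 CPM in ΔNFκB DSS libraries, against 9385 to 15260 CPM in the untreated ones. Without Muc2, the most abundant, the other 9 summed to 2232 to 2370 CPM in WT DSS and 3187 to 3214 CPM in ΔNFκB DSS libraries. Of the 10, 5 were higher and 1 lower in ΔNFκB mice after DSS (median log2 difference 0.45), where 8.32% of all genes were higher and 11.7% lower. Car1 went the other way, at 288 and 300 CPM in WT DSS and 77.5 and 67.2 CPM in ΔNFκB DSS libraries. Gene counts are shares of a library, and what part the differences in these genes have in the macrophage values was not tested. Timd4, a receptor of long-lived gut and peritoneal macrophages that takes up apoptotic cells, was at 4.72 CPM in ΔNFκB untreated replicate 1 and at most 1.43 CPM in the other 7 libraries.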
